A study of Mus musculus with 6 samples.

Results

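The genes described here are 30 genes that give Purkinje cells their identity or handle their calcium, chosen by symbol from the table of 55098 genes deposited for the series. All 30 were found once in the table, and all 30 passed the filter on low counts. The series compared whole cerebellum between genotypes, in males at postnatal day 60. The 3 libraries labelled Slc39a14 knock-out (KO) came from animals 2, 4 and 6, and the 3 labelled Slc39a14 wildtype (WT) from animals 1, 3 and 5, with 1 library per animal. The product of Slc39a14, ZIP14, carries manganese and other metals into cells, and the series title calls the mouse a model of manganese-induced dystonia with parkinsonism that begins in childhood. The exons missing from the allele, the strain and whether litters were shared were not stated in the labels used here.

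Purkinje cells are large inhibitory neurons and carry the whole output of the cerebellar cortex. Parallel fibre input activates the glutamate receptor mGluR1 on their dendrites, which through a G protein and phospholipase C produces inositol trisphosphate (IP3) and opens the IP3 receptor of the endoplasmic reticulum. Calcium pumps then refill the store or expel calcium from the cell, and abundant calcium-binding proteins buffer what remains. Loss of several of these genes causes ataxia in mice.

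Total gene counts were 13912821 to 15754275 in KO and 13805997 to 15788135 in WT libraries, and 1 count was worth 0.0629 to 0.0734 CPM (counts scaled to library size). Slc39a14 itself had 654, 572 and 640 counts in KO 2, 4 and 6, against 582, 646 and 598 in WT 1, 3 and 5 (log2 fold change -0.0035, SE 0.11). The gene count thus did not separate the libraries by label, and a count that covers a whole gene cannot reveal a missing exon. KO and WT therefore stand for the libraries so labelled. The Purkinje cell genes Calb1, Car8, Itpr1 and Pcp2 were detected at 90.4 CPM or more in every library, as were the granule cell genes Cbln3 and Zic1. In whole tissue, fewer Purkinje cells and less RNA per cell cannot be told apart. Several of the 30 genes are also used by other cerebellar cells, such as Pvalb and Rora in molecular layer interneurons.

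No Purkinje cell gene passed the test between KO and WT cerebellum. Of the 30 genes 0 rose and 0 fell (edgeR quasi-likelihood test with Benjamini-Hochberg adjustment over 17142 genes, adjusted p = 1.0 for each member), where 0.0467% of all tested genes were called, all of them higher in KO. At an unadjusted p under 0.05 there were also 0 of the 30, against 2.75% of all tested genes, and the lowest member p was 0.204, for Pcp2. DESeq2 and limma-voom called 0 of the 30 as well, with 0 at an unadjusted p under 0.05 in each. Of the 30 genes 0 were called in the authors' deposited table at an adjusted p under 0.05 (0.128% of its genes were), and its log2 fold changes of KO over WT ran from -0.20 to 0.19.

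Log2 fold changes ran from -0.20 (Foxp2) to 0.19 (Pcp2), with standard errors of 0.082 to 0.26. In 28 of the 30 genes the 95% interval of the log2 fold change, not adjusted for the number of genes, lay within 0.585 of 0, a 1.5-fold change either way. This held for 60.5% of all tested genes and for 93.5% of the 9821 genes at or above the mean CPM of the lowest member. The exceptions were Foxp2 (-0.62 to 0.21) and Lhx5 (-0.63 to 0.53). Of the 30 log2 fold changes 21 were positive with a median of 0.051, against 48.8% positive and a median of -0.0036 over all tested genes. The number positive hung on single libraries: it was 17 without KO 6 or without WT 1, and 26 without WT 3. The members share libraries and the cell type, so they are not independent.

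**Figure D1:**
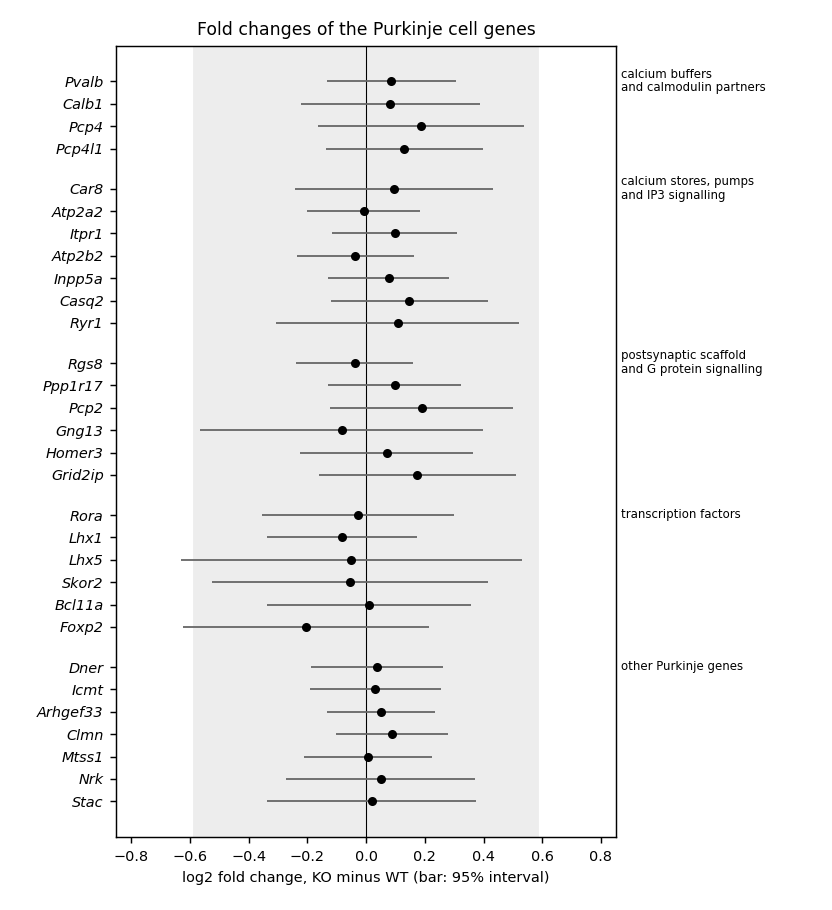
Log2 fold change of KO minus WT (horizontal axis) for the 30 Purkinje cell genes, grouped by role, with 95% intervals as bars and a 1.5-fold change either way as the grey band. All intervals include 0, and only those of Foxp2 and Lhx5 reach outside the band.

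The 4 calcium buffers and calmodulin partners had positive log2 fold changes (median 0.11), and 0 passed. Pvalb, the fast buffer parvalbumin, was the most abundant member per length (416 ± 34.8 FPKM in KO and 396 ± 22.8 FPKM in WT, SD, n = 3 each), FPKM being the deposited counts scaled by gene length and library total. Calb1, encoding the buffer calbindin, had 865, 1082 and 794 CPM in KO 2, 4 and 6, against 769.5, 826 and 992 CPM in WT 1, 3 and 5. KO 4 and WT 5 were the high libraries of their groups and the groups overlapped (log2 fold change 0.083, SE 0.14).

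Pcp4, the small calmodulin-binding protein PEP-19, had 38.4, 49.6 and 44.9 CPM in KO 2, 4 and 6, against 33.8, 35.2 and 47.9 CPM in WT 1, 3 and 5. Here too WT 5 lay among the KO libraries (log2 fold change 0.19, SE 0.16). Its relative Pcp4l1 had 58.9, 59.5 and 47.8 CPM in KO 2, 4 and 6, against 48.6, 48.6 and 54.7 CPM in WT 1, 3 and 5. KO 6 was the lowest of all 6 libraries for Pcp4l1 (log2 fold change 0.13, SE 0.12). With 1 library left out, the log2 fold change of Pcp4 ran from 0.096 without WT 1 (unadjusted p = 0.597), with 0.10 without KO 4 and 0.12 without WT 3, to 0.36 without WT 5 (unadjusted p = 0.0241, edgeR adjusted p = 0.989). Without WT 5, Pcp4 was the only 1 of the 30 genes at an unadjusted p under 0.05, where 3.78% of all tested genes were. The log2 fold change of Pcp4l1 ran from 0.081 without KO 4 to 0.23 without KO 6.

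Of the 7 genes of calcium stores, pumps and IP3 signalling 5 had positive log2 fold changes and 2 negative ones (median 0.095), and 0 passed. Itpr1, the IP3 receptor of Purkinje cells, was the member with the most counts, at 3542, 4066 and 3917 CPM in KO 2, 4 and 6, against 3417, 3906 and 3451 CPM in WT 1, 3 and 5. The groups overlapped, since WT 3 lay above KO 2 (log2 fold change 0.097, SE 0.096). It was 0.17 without WT 3, 0.058 without KO 4 and 0.029 without both KO 4 and WT 5. Atp2a2, the SERCA2 pump that refills the store, averaged 1607 ± 74.5 CPM in the KO libraries and 1617 ± 63.7 CPM in the WT ones (SD, n = 3 each), a log2 fold change of -0.0087 (interval -0.20 to 0.18). Atp2b2, the PMCA2 pump that expels calcium through the plasma membrane, averaged 986 ± 44.8 CPM in the KO libraries and 1011 ± 61.6 CPM in the WT ones (SD, n = 3 each), a log2 fold change of -0.037 (SE 0.089).

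Car8, a carbonic anhydrase relative without enzyme activity that binds the IP3 receptor and lowers its affinity for IP3, was second to Pvalb per length. It had 1188, 1539 and 1112 CPM in KO 2, 4 and 6, against 1016, 1164 and 1416 CPM in WT 1, 3 and 5. KO 4 and WT 5 were again the high libraries (log2 fold change 0.095, SE 0.15). Inpp5a, a phosphatase that ends the IP3 signal, had 402, 429 and 425 CPM in KO 2, 4 and 6, against 407, 421 and 363 CPM in WT 1, 3 and 5 (log2 fold change 0.077, SE 0.092). Both calcium store genes better known from muscle were low per length: Casq2, a calcium-binding protein inside the store, at 11.0 ± 1.16 FPKM in KO and 10.02 ± 0.258 FPKM in WT, and the ryanodine receptor Ryr1 at 3.93 ± 0.702 FPKM in KO and 3.68 ± 0.886 FPKM in WT (SD, n = 3 each). Ryr1 had 84.7, 78.1 and 109 CPM in KO 2, 4 and 6, against 89.3, 101 and 61.2 CPM in WT 1, 3 and 5, so that WT 5 was lowest and KO 4 next above it (log2 fold change 0.11, SE 0.19).

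**Figure D2:**
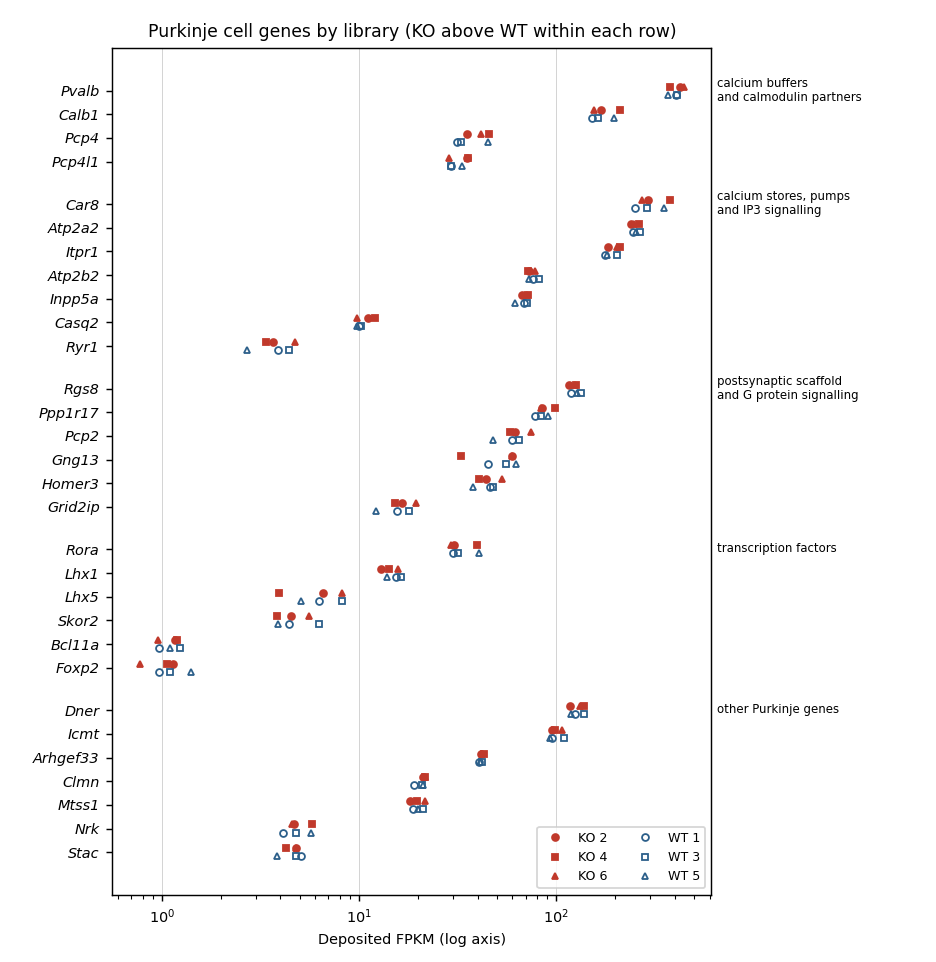
Deposited FPKM (horizontal axis, logarithmic) of the 30 Purkinje cell genes in each library, filled red symbols for KO and open blue symbols for WT, grouped by role and ordered by mean level. Mean levels span from 1.08 FPKM for Foxp2 to 406 FPKM for Pvalb, and on the CPM scale the groups overlap in 28 of 30 genes.

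Postsynaptic scaffold and G protein genes gave 4 positive and 2 negative log2 fold changes, and 0 of the 6 passed. Pcp2, a modulator of G protein signalling used as the classical Purkinje cell marker L7, had 119.96, 112 and 144 CPM in KO 2, 4 and 6, against 114, 125 and 90.4 CPM in WT 1, 3 and 5. WT 5 was the lowest library and KO 6 the highest (log2 fold change 0.19, SE 0.14). Grid2ip, also called delphilin, anchors the GluD2 receptor at the parallel fibre synapse. It had 118, 108 and 139.7 CPM in KO 2, 4 and 6, against 110.3, 127 and 86.2 CPM in WT 1, 3 and 5, with the same highest and lowest library as Pcp2 (log2 fold change 0.17, SE 0.15).

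Homer3, the scaffold that ties mGluR1 to the IP3 receptor, averaged 166 ± 24.0 CPM in the KO libraries and 158 ± 20.7 CPM in the WT ones (SD, n = 3 each), a log2 fold change of 0.071 (SE 0.13). Rgs8, which speeds the shut-off of G proteins, averaged 1241 ± 53.4 CPM in the KO libraries and 1274 ± 78.2 CPM in the WT ones (SD, n = 3 each). Ppp1r17, an inhibitor of protein phosphatases, averaged 165 ± 15.2 CPM in the KO libraries and 154 ± 10.6 CPM in the WT ones (SD, n = 3 each). Gng13, a G protein gamma subunit, was low in a single library. It had 49.0, 27.0 and 48.4 CPM in KO 2, 4 and 6, against 36.6, 45.2 and 50.02 CPM in WT 1, 3 and 5, and its log2 fold change of -0.083 (SE 0.22) became 0.15 without KO 4 and 0.022 without WT 5. Gng13 overlaps Chtf18 on the opposite strand, whose counts equalled 10.4% of its own, Homer3 likewise overlaps Ddx49 (10.4%) and Pcp2 Pet100 (4.31%), and the labels used here do not say whether counting used the strand.

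Among transcription factors 5 of 6 log2 fold changes were negative, none passed, and mean levels per length ran from 1.08 FPKM for Foxp2 to 33.7 FPKM for Rora. Rora, the nuclear receptor whose loss in staggerer mice stops Purkinje cell maturation, had 422, 549 and 402 CPM in KO 2, 4 and 6, against 411, 436 and 551 CPM in WT 1, 3 and 5. KO 4 and WT 5 were the high libraries, and the others lay between 402 and 436 CPM in both groups (log2 fold change -0.028, SE 0.15). Foxp2, a forkhead factor of Purkinje cells and cerebellar nuclei, had 19.8, 18.2 and 13.3 CPM in KO 2, 4 and 6, against 16.7, 18.8 and 23.8 CPM in WT 1, 3 and 5. KO 6 was lowest and WT 5 highest (log2 fold change -0.20, SE 0.19).

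Lhx1 and Lhx5 are LIM homeodomain factors that Purkinje cell differentiation needs together. Lhx1 averaged 61.2 ± 5.95 CPM in the KO libraries and 64.8 ± 5.74 CPM in the WT ones (SD, n = 3 each). Lhx5 had 18.6, 11.2 and 23.3 CPM in KO 2, 4 and 6, against 17.6, 23.0 and 14.2 CPM in WT 1, 3 and 5. Lhx5 was the member that varied most, by 1.05 on the log2 scale between KO 6 and KO 4. Skor2, a corepressor of Purkinje cell development, averaged 15.4 ± 2.89 CPM in the KO libraries and 15.9 ± 4.21 CPM in the WT ones (SD, n = 3 each). The zinc finger factor Bcl11a averaged 15.3 ± 1.83 CPM in the KO libraries and 15.2 ± 1.84 CPM in the WT ones (SD, n = 3 each). Lhx5 overlaps the antisense gene Gm27199, whose counts equalled 13.8% of its own.

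The 7 other Purkinje cell genes all had positive log2 fold changes, of 0.0076 to 0.089, and none passed. In 2 of them, and in 2 of all 30, all KO values lay above all WT values, where 3.58% of all tested genes did so and 7.26% were separated in either direction. Clmn, encoding calmin, an actin-binding membrane protein, had 276, 283 and 282 CPM in KO 2, 4 and 6, against 248, 271 and 272 CPM in WT 1, 3 and 5 (log2 fold change 0.089, SE 0.085). Arhgef33, a guanine nucleotide exchange factor, had 206.2, 212 and 207 CPM in KO 2, 4 and 6, against 198, 206.2 and 199 CPM in WT 1, 3 and 5, so that KO 2 and WT 3 differed only beyond the digits given (log2 fold change 0.052, SE 0.082). Arhgef33 overlaps Sos1 on the opposite strand, whose counts equalled 53.6% of its own.

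Dner, a Notch ligand on Purkinje cell dendrites, averaged 654 ± 50.7 CPM in the KO libraries and 638 ± 53.7 CPM in the WT ones (SD, n = 3 each). Icmt, which methylates prenylated proteins, averaged 561 ± 34.6 CPM in the KO libraries and 548 ± 51.7 CPM in the WT ones (SD, n = 3 each). Mtss1, a membrane-bending protein that shapes dendrites, averaged 238 ± 20.1 CPM in the KO libraries and 236 ± 14 CPM in the WT ones (SD, n = 3 each). In all 3 the groups overlapped. The kinase gene Nrk averaged 48.5 ± 6.41 CPM in the KO libraries and 46.9 ± 7.41 CPM in the WT ones (SD, n = 3 each). The adaptor gene Stac averaged 12.9 ± 0.791 CPM in the KO libraries and 12.7 ± 1.88 CPM in the WT ones (SD, n = 3 each). In both the groups overlapped as well.

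Summed over the 30 genes, the level was 13404, 14955 and 14159 CPM in KO 2, 4 and 6, against 13012, 14399 and 13706 CPM in WT 1, 3 and 5. The groups overlapped, with a KO to WT ratio of means of 1.03, and the genes took 1.294% to 1.498% of all counts of a library. The sum weighs abundant genes most. Itpr1 alone averaged 3842 CPM in KO and 3591 CPM in WT, where the sums averaged 14173 and 13705 CPM. Other Purkinje cell genes (18 listed and tested, 0 called, 11 positive, median log2 fold change 0.024) summed to 4965 to 5244 CPM in KO and 4759 to 5329 CPM in WT. Among these, Aldoc, the zebrin II enzyme of Purkinje cell stripes, averaged 1404 ± 128 CPM in the KO libraries and 1331 ± 99.2 CPM in the WT ones (SD, n = 3 each). It was the most abundant gene of a list whose sums averaged 5076 CPM in KO and 4992 CPM in WT. In whole tissue these genes are not shown to be confined to Purkinje cells.

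Of the other cell types listed, choroid plexus markers differed most between libraries. The 12 choroid plexus markers summed to 1413, 1931 and 643 CPM in KO 2, 4 and 6, against 794, 295 and 168 CPM in WT 1, 3 and 5, with 12 of 12 positive, 11 at an unadjusted p under 0.05, 0 called by edgeR, and none at 0. Ttr, the transthyretin of choroid plexus, averaged 1148 ± 555 CPM in the KO libraries and 339.9 ± 288 CPM in the WT ones (SD, n = 3 each). The 12 microglia markers summed to 156 to 204 CPM in KO and 126 to 137 CPM in WT (11 of 12 positive, 0 called). At an unadjusted p under 0.05, 6 of them were higher in KO and 1, Fcrls, was lower (log2 fold change -0.79, SE 0.32). Of all tested genes 2.75% had an unadjusted p under 0.05, and 0.0467% were called. The 12 granule cell markers summed to 7049 to 7327 CPM in KO and 7418 to 7918 CPM in WT (12 of 12 negative, 0 called). The 10 interneuron markers summed to 583 to 589.7 CPM in KO and 600.4 to 628 CPM in WT (4 of 10 positive, 0 called), and the 8 markers of cerebellar nuclei to 581 to 755 CPM in KO and 700.0 to 819 CPM in WT (1 of 8 positive, 0 called). In the microglia list every KO sum lay above every WT sum, and in the granule cell and interneuron lists below. The median log2 fold change of the interneuron markers was -0.022. Among them 1, Lgi2, was lower in every KO library (111 to 134 CPM) than in every WT library (137 to 151 CPM), and 1, Sorcs3, was higher. The separation of the interneuron sums was thus not shared by most genes of that list. In the granule cell list 2 of 12 genes lay lower in every KO library than in every WT library, and 0 higher. In the microglia list 6 of 12 lay higher and 1 lower. Of all tested genes 3.58% lay higher in every KO library and 3.68% lower. Markers of astrocytes and Bergmann glia (7 of 10 positive), oligodendrocytes (3 of 8), endothelial and mural cells (6 of 8) and meningeal fibroblasts (7 of 7) gave 0 calls each. No marker in these lists was at 0 in any library. Their part in the values of the Purkinje cell genes was not tested.

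**Figure D3:**
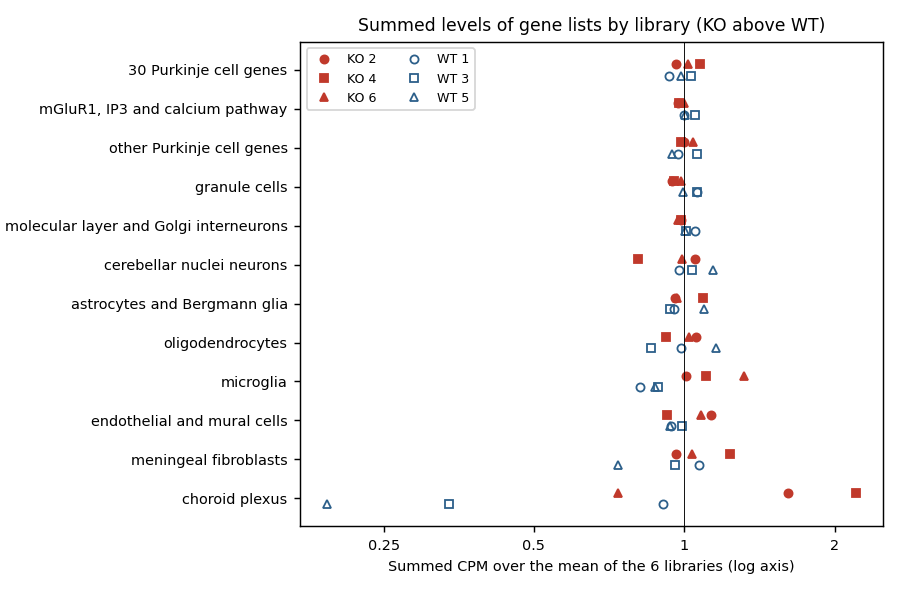
Summed CPM of the 30 Purkinje cell genes and of each gene list, divided by the mean over the 6 libraries (horizontal axis, logarithmic), with KO libraries as filled red and WT libraries as open blue symbols. The Purkinje cell genes run from 13012 CPM in WT 1 to 14955 CPM in KO 4, and choroid plexus markers from 168 CPM in WT 5 to 1931 CPM in KO 4.

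In the rest of the pathway from mGluR1 to calcium no gene passed either. Of 48 listed genes 47 were tested, and Pln, an inhibitor of SERCA, was not, with 1 to 6 counts per library. Of the 47, 0 rose and 0 fell, 0 had an unadjusted p under 0.05, 17 were positive and 30 negative, and the median log2 fold change was -0.033. Of all tested genes 0.0467% were called, 2.75% had an unadjusted p under 0.05 and 48.8% were positive. With so few genes called at all, 0 calls among 47 says little about the pathway. The calmodulin genes Calm2 and Calm3 were at 0.017 (SE 0.10) and -0.033 (SE 0.11) on the log2 scale. The kinase genes Camk4 and Camk2b were at -0.11 (SE 0.13) and -0.096 (SE 0.13), and Cacna1a, the P/Q calcium channel of Purkinje cells, at -0.11 (SE 0.14). These levels are of whole cerebellum, and the part of Purkinje cells in them was not tested.

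The smallest p in this list belonged to Calr, the calcium-binding chaperone calreticulin, at 331 ± 41.5 CPM in the KO libraries and 386 ± 28.6 CPM in the WT ones (SD, n = 3 each), a log2 fold change of -0.22 (SE 0.11) and an adjusted p of 1.0 by edgeR. Camk2a had 144, 226 and 161 CPM in KO 2, 4 and 6, against 141, 150.02 and 145 CPM in WT 1, 3 and 5 (log2 fold change 0.28, SE 0.15). Its KO mean was raised by KO 4, while KO 2 lay among the WT libraries. The ryanodine receptor gene Ryr3 averaged 32.6 ± 3.64 CPM in the KO libraries and 38.5 ± 4.14 CPM in the WT ones (log2 fold change -0.24, SE 0.13; SD, n = 3 each). Of the 47 genes 2 were separated by group, against 7.26% of all tested genes. In Ryr2 the KO values all lay below the WT values, as in 3.68% of all tested genes, and in the store sensor gene Stim2 above, as in 3.58%.

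The main variation among the 30 genes did not follow the genotype. On the first principal component of the 30 genes, which held 62.2% of their variance, KO 4 and WT 5 lay at 0.987 and 0.996, KO 6, WT 3 and WT 1 at -0.94, -0.663 and -0.30, and KO 2 at -0.081. In 6 genes (Calb1, Car8, Rora, Nrk, Pcp4 and Ppp1r17) KO 4 and WT 5 were the 2 highest libraries, as they were in 20.0% of all tested genes. In 9 genes (Pvalb, Ryr1, Atp2b2, Homer3, Grid2ip, Pcp2, Skor2, Lhx5 and Stac) they were the 2 lowest, as in 21.0% of all tested genes. For the highest libraries the share among the 30 genes equals that over the whole table. KO 6 and WT 3 were the 2 highest in 10 of the 30 genes, where they were in 10.7% of all tested genes, and no test was made of these shares.

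**Figure D4:**
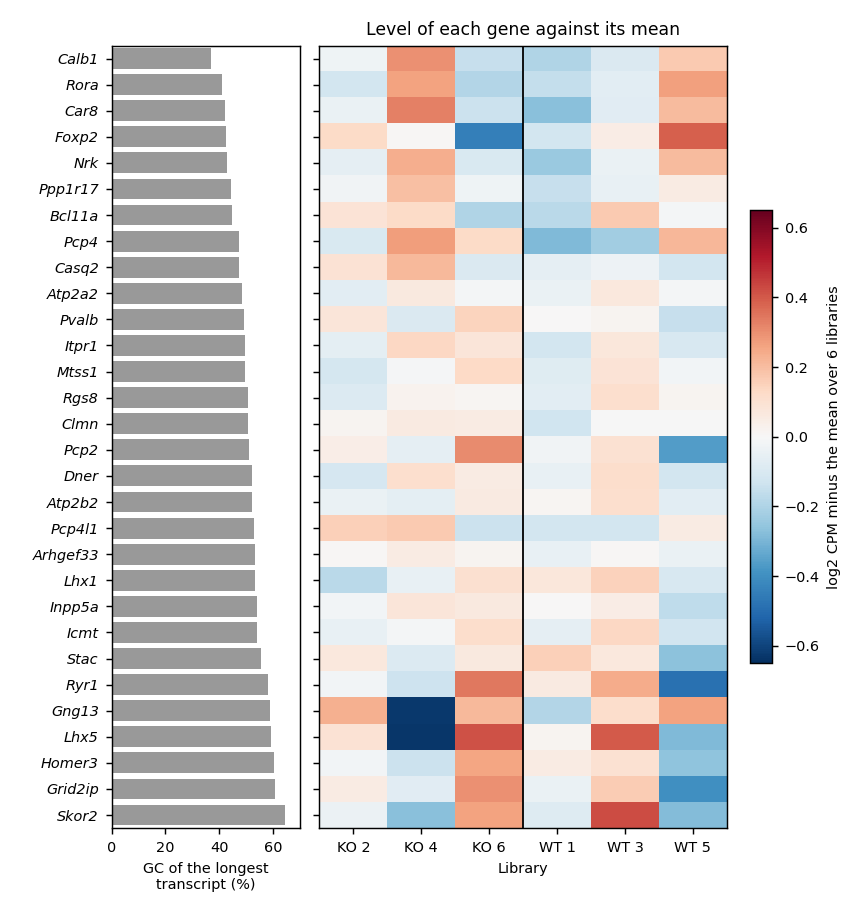
Log2 CPM of each Purkinje cell gene minus its mean over the 6 libraries (colour), with KO libraries left of WT libraries and genes ordered by the GC content of their longest transcript (grey bars, percent). Genes low in GC, at the top, are mostly high in KO 4 and WT 5, and those rich in GC, at the bottom, mostly low there and high in KO 6 and WT 3.

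Base composition moved with this order. GC content of the longest annotated transcript was 36.8% to 47.1% in the 6 genes highest in KO 4 and WT 5 (median 42.6%), 49.3% to 64.3% in the 9 genes lowest there (median 58.0%), and 42.6% to 58.7% in the other 15. Coding sequence is given for 4 genes from the ends of this order, although the order itself is by GC of the whole transcript. For the 2 genes lowest in GC among those 6 and the 2 richest in GC among those 9 (Skor2 aside, which is not shown), the central 120 coding bases of the longest coding sequence in GENCODE vM21 (GRCm38) follow 5′ to 3′, all on the plus strand of the genome, with every G and C in capitals. Calb1 lies at chr4:15881264-15908064, Rora at chr9:68653786-69388246, Homer3 at chr8:70282827-70294361 and Grid2ip at chr5:143357338-143392152.
Calb1: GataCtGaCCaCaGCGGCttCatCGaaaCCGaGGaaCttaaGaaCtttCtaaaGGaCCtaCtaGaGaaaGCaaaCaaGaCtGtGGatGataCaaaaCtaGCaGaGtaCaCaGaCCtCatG
Rora: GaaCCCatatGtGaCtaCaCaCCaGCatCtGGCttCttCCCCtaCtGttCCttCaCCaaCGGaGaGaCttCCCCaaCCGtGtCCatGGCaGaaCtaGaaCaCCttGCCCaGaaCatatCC
Homer3: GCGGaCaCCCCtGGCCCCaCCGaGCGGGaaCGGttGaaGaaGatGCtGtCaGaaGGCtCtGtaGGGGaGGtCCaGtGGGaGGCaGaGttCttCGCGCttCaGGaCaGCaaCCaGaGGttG
Grid2ip: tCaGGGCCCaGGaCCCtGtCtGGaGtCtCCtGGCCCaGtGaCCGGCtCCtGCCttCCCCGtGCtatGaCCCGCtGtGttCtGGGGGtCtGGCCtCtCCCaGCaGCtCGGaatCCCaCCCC
G or C made up 52 of the 120 bases in Calb1, 62 in Rora, 74 in Homer3 and 81 in Grid2ip, and 43.2%, 52.6%, 60.4% and 62.2% of their whole coding sequences. Their longest transcripts were at 36.8%, 40.9%, 60.2% and 60.6%. The coding part of Rora was thus richer in GC than its longest transcript. It was also above the coding part of Pvalb (50.9%), which is among the 9 genes lowest in KO 4 and WT 5.

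Across the 30 genes, the deviation from the mean over libraries ran with GC content in opposite directions in different libraries. Pearson's r was 0.199 in KO 2, -0.753 in KO 4, 0.789 in KO 6, 0.594 in WT 1, 0.696 in WT 3 and -0.707 in WT 5. Each r is across 30 genes of 1 library, and the 6 values depend on one another, because the deviations of a gene add up to 0. The same signs held over the 16913 tested genes with a GC value, where a rise of 10 points in GC went with -0.213 on the log2 scale in KO 4 and -0.249 in WT 5, and with 0.185 in KO 6. Both genotypes therefore held libraries of both signs.

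**Figure D5:**
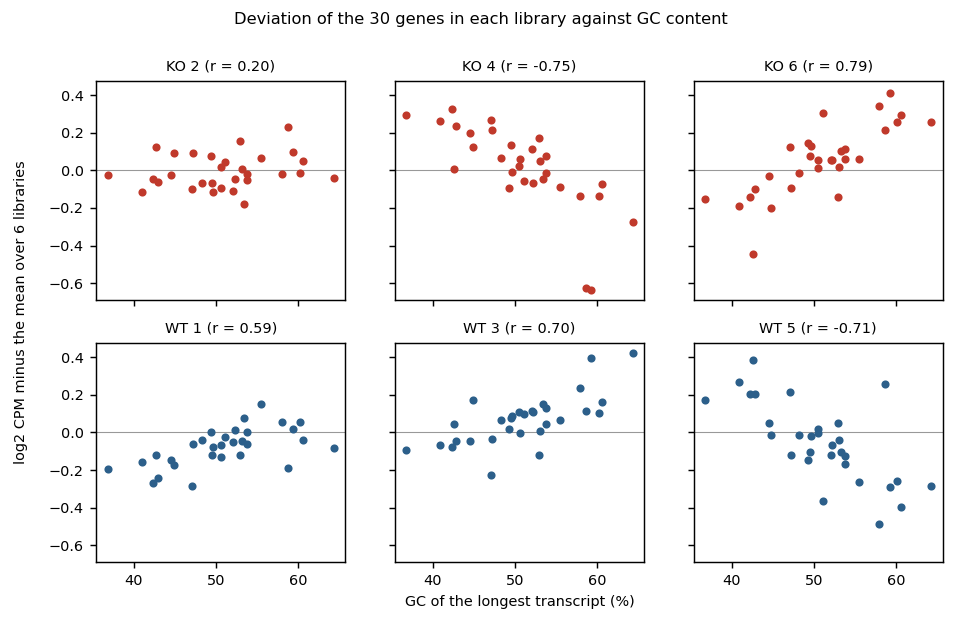
Log2 CPM minus the mean over the 6 libraries (vertical axis) against GC content of the longest transcript in percent (horizontal axis) for the 30 Purkinje cell genes, 1 panel per library, KO above and WT below. The points slope down in KO 4 and WT 5 and up in KO 6, WT 1 and WT 3.

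With each library adjusted for its trend on GC content over all genes, a setting added after the data were seen, the levels of several members drew together. Homer3 ranged over 0.134 on the log2 scale between libraries, against 0.519 without the adjustment, and Rora over 0.155 against 0.457. Adjusted, Homer3 had 156, 169.7 and 169.9 CPM in KO 2, 4 and 6, against 155, 158 and 161 CPM in WT 1, 3 and 5. Ranges did not shrink in all genes: Arhgef33 ranged over 0.20 against 0.0979, Pcp4l1 over 0.46 against 0.315 and Gng13 over 0.932 against 0.892. The median range of the 30 was 0.289 against 0.359, and their median standard error 0.0751 against 0.126. The trend was fitted to the deviations of these same libraries, so smaller ranges and standard errors are partly built in. The standard errors also take the fitted trend as known.

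No member passed after this adjustment either. The smallest p was that of Grid2ip (log2 fold change 0.18, SE 0.069, unadjusted p = 0.0274, edgeR adjusted p = 0.814), with 115, 126 and 122 CPM in KO 2, 4 and 6, against 102, 116 and 103 CPM in WT 1, 3 and 5. Grid2ip was the only 1 of the 30 genes at an unadjusted p under 0.05 with the adjustment, where 5.82% of all tested genes were. Pcp2 was at 0.18 (SE 0.11), Calb1 at 0.076 (SE 0.075) and Itpr1 at 0.090 (SE 0.072). In Clmn and Arhgef33, separated by group without the adjustment, the groups overlapped with it. Clmn had 276.4 CPM in WT 5 against 274 in KO 2, and Arhgef33 had 213 CPM in WT 5 against 196 in KO 6. With a term for KO 4 and WT 5 in place of GC content, Pcp2 had the smallest p (log2 fold change 0.20, SE 0.080, unadjusted p = 0.0329, edgeR adjusted p = 0.797). It was the only 1 of the 30 genes at an unadjusted p under 0.05, where 6% of all tested genes were. No label used here sets KO 4 and WT 5 apart, and the pair rests on their values in these data. A smaller standard error with this term is therefore partly built in.

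The promoter of Pcp2 is shown because Rora and Pcp2 are both among the 30 genes. RORα, the product of Rora, is known in mice to drive Purkinje cell genes through sites that contain AGGTCA. Only AGGTCA itself was searched for, without the bases around it, so a match is not shown to be a RORα site. The 300 bases from 250 before to 50 after the start in RefSeq (GRCm38.p6, chr8:3625498-3625797, minus strand) follow 5′ to 3′, with AGGTCA in capitals.
Pcp2: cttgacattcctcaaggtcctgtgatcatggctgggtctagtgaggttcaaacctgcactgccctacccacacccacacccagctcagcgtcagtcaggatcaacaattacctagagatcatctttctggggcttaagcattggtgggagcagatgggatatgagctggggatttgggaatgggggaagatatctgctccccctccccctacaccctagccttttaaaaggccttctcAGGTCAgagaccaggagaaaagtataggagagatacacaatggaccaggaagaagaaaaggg
The match lies 12 bases before the start, on the strand of the gene. Of the 30 genes 21 had a promoter in the RefSeq table, and AGGTCA stood on either strand in 5 of them (Arhgef33, Dner, Homer3, Pcp2 and Pcp4), or 23.8%, against 16% of 27024 promoters, 1 per gene. In the libraries Rora and Pcp2 took different orders, with WT 5 highest for Rora and lowest for Pcp2. With the GC adjustment WT 3 was highest for Rora (479 CPM, against 477 in KO 4 and 475 in WT 5). WT 5 stayed lowest for Pcp2 (92.9 CPM). Whether Rora acts on Pcp2 in these libraries was not tested.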

How the data were processed

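Per the labels' protocols, RNA of whole cerebellum was purified with TRIZOL and libraries were prepared by a company. The submitters' processing notes name HISAT2, DESeq2 and GRCm38.p6; neither the counting program nor its strand setting was stated in the labels used here. Whole-number counts for each gene and library are deposited. FPKM values, which scale the counts by gene length and library total, are deposited beside them. A group mean signal by the authors was left unused. The authors' log2 fold changes and p-values compare KO with WT.

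Libraries were grouped by title, with separate animals as replicates. The count test was edgeR 4.0.16 in R 4.3.3 (quasi-likelihood F test, TMM, filterByExpr, Benjamini-Hochberg adjustment over 17142 genes, threshold 0.05). CPM are TMM-normalized and log2 fold changes are KO minus WT. A standard error is the log2 fold change divided by the square root of F, and log2 CPM has a prior count of 2. Pairs of libraries differed by chi-square values of at least 4.96 per degree of freedom. GC content came from GENCODE vM21, in which all 30 members had the deposited positions. The GC adjustment is an offset from a loess curve (span 0.3) per library. Alternatives covered normalization, filters, DESeq2 1.42.0, limma-voom (limma 3.58.1), robust shrinkage, protein-coding genes and libraries left out. The edgeR step was tested on simulated data. Named genes were the 30 members, Slc39a14, the 6 pathway genes of highest CPM, the 3 of smallest p and markers of highest CPM. Ryr2, Stim2, Pln, Fcrls, Lgi2 and Sorcs3 were named after their values were seen. Some genes that this rule picks are not reported here. The members and lists were chosen with earlier results of these data known. Figures were drawn with matplotlib 3.10.9.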

Additional observations from a re-analysis of the deposited data

How the results depend on the processing

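No paired analysis was possible because the animal numbers in the labels differ between KO and WT. The number of Purkinje cell genes past the threshold was 0 under all 18 alternatives, and so was that of the listed calcium pathway genes. The median log2 fold change of the 30 genes was 0.02 to 0.11 with 1 library left out (0.0154 without WT 1, 0.109 without WT 3), against 0.051 as reported. Of all genes, 8 were called as reported, 142 with no filter on low counts, 42 by DESeq2, 40 without KO 4 and WT 5, 34 with a term for those libraries, 22 with the GC adjustment (added after seeing the data), and 0 to 28 with 1 library left out. No label sets KO 4 and WT 5 apart, so the settings that single them out rest on their values in these data.

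Of the 30 genes 13 kept the sign of their log2 fold change under every alternative and 17 did not; the cause was not tested. With library totals alone Atp2a2 was at 0.0089. Without KO 4 and WT 5, Gng13 was at 0.25, Lhx5 at 0.043, Bcl11a at -0.053, Dner at -0.057, Icmt at -0.0019 and Stac at -0.043. With the GC adjustment Bcl11a was at -0.0067 and Mtss1 at -0.0005039. With 1 library left out, the log2 fold change ran from -0.053 to 0.20 for Calb1, -0.072 to 0.27 for Ryr1, -0.041 to 0.028 for Atp2a2, -0.076 to 0.015 for Atp2b2, -0.056 to 0.23 for Car8, -0.049 to 0.16 for Homer3, -0.0803 to 0.013 for Rgs8, -0.22 to 0.15 for Gng13 and -0.18 to 0.11 for Rora. It ran from -0.069 to 0.11 for Bcl11a, -0.20 to 0.19 for Skor2, -0.29 to 0.20 for Lhx5, -0.0098 to 0.11 for Dner, -0.057 to 0.065 for Mtss1, -0.019 to 0.12 for Icmt, -0.094 to 0.10 for Stac and -0.059 to 0.18 for Nrk. Among the 13 genes that kept their sign, it ran from 0.035 to 0.16 for Pvalb, 0.096 to 0.36 for Pcp4, 0.081 to 0.23 for Pcp4l1, 0.058 to 0.17 for Itpr1, 0.019 to 0.13 for Inpp5a, 0.078 to 0.23 for Casq2, 0.023 to 0.15 for Ppp1r17, 0.07 to 0.30 for Pcp2, 0.038 to 0.32 for Grid2ip, -0.16 to -0.015 for Lhx1, -0.32 to -0.048 for Foxp2, 0.042 to 0.075 for Arhgef33 and 0.049 to 0.11 for Clmn.

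The depth allows no statement on values near the worth of 1 count, and intervals rest on 3 libraries per group.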
